A study of Mus musculus with 25 samples.

Results

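The genes described here are 38 protein-coding Hox genes of the 4 mouse Hox clusters, chosen by name from the 52636 genes of the count table. All 38 were found: 10 of HoxA on chromosome 6, 10 of HoxB on chromosome 11, 9 of HoxC on chromosome 15 and 9 of HoxD on chromosome 2. RNA was sequenced from the *soleus*, a slow-twitch muscle of the lower hindlimb, in 25 C57BL/6 mice aged 12 weeks, 1 library a mouse. WT mice carried *Dnmt3a* flox/flox alleles and no Cre, and mD3AKO mice carried the same alleles with Cre under the muscle creatine kinase promoter (mCK-Cre), which acts late in muscle differentiation and also in the heart. *Dnmt3a* in the satellite cells and non-muscle cells of these muscles was not analysed here. Both genotypes were killed either at rest after a sham treadmill session (5 WT, 7 mD3AKO) or 60 min after a 30-min treadmill run (7 WT, 6 mD3AKO), and every group held females and males, 12 females and 13 males in all.

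Hox genes encode homeodomain transcription factors that give cells along the body axis and the limb their positional identity. The genes of a cluster lie in a row, numbered 1 to 13 by paralog group, and in the embryo the low-numbered genes are switched on early and towards the head and the high-numbered genes late and towards the tail or the end of the limb. Adult muscle and the connective tissue within it keep part of this pattern, which depends on chromatin marks laid down by the Polycomb and Trithorax proteins. DNMT3A is one of the enzymes that place new DNA methylation on CpG sites, and Hox clusters are rich in such sites.

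Libraries held 22671457 to 37431801 counts, with a median of 32189360, and 1 CPM (a read count scaled to the TMM-adjusted library size) was a median of 32.4 reads, 14.3 in the library of mouse 15 and 26.5 to 39.8 in the others. *Dnmt3a* was between 93.3 and 130 CPM in the 12 WT libraries and between 34.5 and 53.8 CPM in the 13 mD3AKO libraries, with no overlap, and its log2 fold change was -1.52 (SE 0.07, adjusted p = 1.52e-13, edgeR). The library of mD3AKO mouse 15, at rest, stood apart: 3 transcripts (*mt-Rnr2*, *Ttn* and *Acta1*) took 28.2% of its counts against 15.5% to 20.3% elsewhere, and its depth was the lowest. The hindlimb origin was checked against a pair of T-box genes: *Tbx4*, which marks the hindlimb, ranged from 1.08 to 1.93 FPKM (CPM divided by the exon length in kilobases), and *Tbx5*, which marks the forelimb, from 0 to 0.037 FPKM. In whole muscle, fewer cells of a type and less RNA per cell cannot be told apart.

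The HoxC and HoxA clusters carried most of the Hox RNA. Of all Hox counts in a library, HoxC took 44.3% ± 3.64 (SD, n = 25), HoxA 34.2% ± 2.26, HoxD 19.0% ± 2.22 and HoxB 2.61% ± 0.564. Per length, the highest level was that of *Hoxc10*, a gene of the lumbar region and hindlimb, at 10.8 FPKM ± 1.07, followed by *Hoxd8* at 5.21 ± 0.853 and *Hoxa10* at 3.26 ± 0.470. *Hoxc11* (2.68 ± 0.376) and *Hoxc9* (2.50 ± 0.485) came next, and their ranges over the libraries (2.10 to 3.47 and 1.94 to 3.51 FPKM) overlapped. From *Hoxa9* (1.39 ± 0.150) down to *Hoxa5* (0.837 ± 0.211) lay 11 genes, each of whose SD ranges reached its neighbour's.

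The highest level of each cluster lay at an inner gene rather than at its end. The levels did not form a single smooth peak: *Hoxc8* was at 0.284 FPKM, between *Hoxc6* at 1.10 and *Hoxc9* at 2.50 FPKM. In HoxA, the low-numbered *Hoxa2* (0.133 FPKM) and *Hoxa3* (0.108 FPKM) were lowest and the other 8 genes, including the terminal *Hoxa13* at 1.08 FPKM, lay between 0.837 and 3.26 FPKM. HoxC levels dropped steeply beyond *Hoxc11*: *Hoxc12* was at 0.0115 FPKM and *Hoxc13* at 0.0154 FPKM. HoxD was centred on *Hoxd8* and *Hoxd9* (1.04 FPKM), with *Hoxd10* at 0.214 FPKM and *Hoxd11* at 0.0289 FPKM. *Hoxb7*, at 0.517 FPKM, was the highest of HoxB, with *Hoxb8* at 0.016 and *Hoxb9* at 0.124 FPKM beside it.

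**Figure D1:**
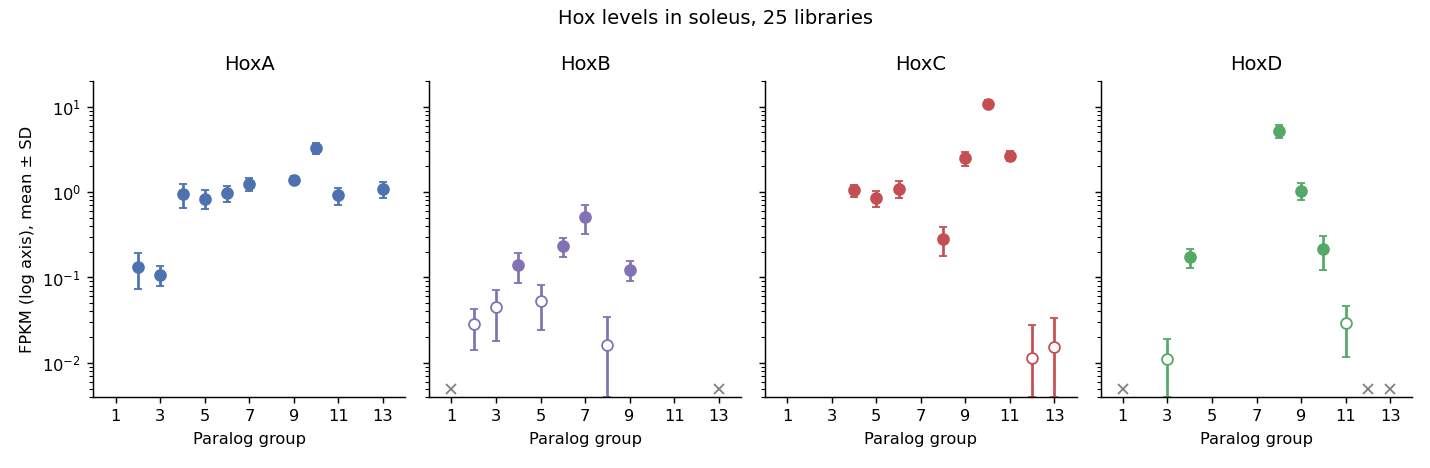
Mean FPKM (log axis, error bars SD over 25 libraries) of the Hox genes by paralog group, 1 panel per cluster. Filled points passed the filter on low counts, open points did not, and crosses mark genes with at most 1 read in all libraries together. *Hoxc10*, *Hoxd8* and *Hoxa10* top HoxC, HoxD and HoxA, and no HoxB gene passes 0.517 FPKM.

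In HoxB and HoxD, 4 genes had no read in any library (*Hoxb1*, *Hoxb13*, *Hoxd1* and *Hoxd12*), which allows up to 3 reads in 804361868 or 0.00373 CPM on the library totals, and *Hoxd13* had 1 read in all. With *Hoxb2*, *Hoxb3*, *Hoxb5*, *Hoxb8*, *Hoxc12*, *Hoxc13*, *Hoxd3* and *Hoxd11*, 13 genes did not pass the filter on low counts and were not tested. The 25 tested genes were 10 of HoxA, 4 of HoxB, 7 of HoxC and 4 of HoxD. Hox genes overlap each other and antisense transcripts, and the counts behaved as if reads on shared exon bases had been discarded: of 428 genes lying wholly within exons of the opposite strand, 1 had any count, and of 645 lying wholly within exons of the same strand, 42 had any and 0 had 250 or more. The level of *Hoxd3* (62.8% of its exon bases shared), *Hoxd4* (52.3%), *Hoxb3* (52.9%) and *Hoxa11* (35%) may therefore rest on part of the gene, while a comparison between groups uses the same bases in every library. Opposite-strand overlap was treated like same-strand overlap, as if counting ignored strand, although the libraries were stranded. Antisense reads on unshared bases may thus be included in the count of a Hox gene.

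Promoter sequence was available for 22 of the 38 genes, including 7 of the 8 that were lower after exercise. The sequences shown are the 250 bases upstream of a RefSeq start of 4 of these genes (*Hoxa7*, *Hoxa9*, *Hoxa10* and *Hoxd8*) and, as an example of a window rich in CG, of *Hoxa5*, which was not called (assembly GRCm38.p6). They are written 5′ to 3′ on the gene's strand, with CG dinucleotides, the sites at which DNMT3A acts, in capitals. *Hoxa10* has a start at the upstream end of the gene and another within it.
Hoxa9: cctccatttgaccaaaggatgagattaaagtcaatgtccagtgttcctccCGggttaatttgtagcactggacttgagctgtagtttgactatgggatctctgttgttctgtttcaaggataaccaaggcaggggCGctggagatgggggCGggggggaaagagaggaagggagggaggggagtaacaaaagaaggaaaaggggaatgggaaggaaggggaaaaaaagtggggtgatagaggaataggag
Hoxa7: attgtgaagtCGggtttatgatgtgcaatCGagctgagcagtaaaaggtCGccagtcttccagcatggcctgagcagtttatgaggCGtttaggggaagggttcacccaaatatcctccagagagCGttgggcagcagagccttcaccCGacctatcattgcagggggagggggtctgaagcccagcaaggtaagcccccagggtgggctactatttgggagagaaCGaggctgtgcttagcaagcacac
Hoxd8: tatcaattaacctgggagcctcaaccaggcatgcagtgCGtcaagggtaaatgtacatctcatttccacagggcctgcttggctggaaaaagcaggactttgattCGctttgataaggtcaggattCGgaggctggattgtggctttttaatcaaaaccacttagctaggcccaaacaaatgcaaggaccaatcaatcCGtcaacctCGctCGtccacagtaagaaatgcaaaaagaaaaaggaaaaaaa
Hoxa10, outer start: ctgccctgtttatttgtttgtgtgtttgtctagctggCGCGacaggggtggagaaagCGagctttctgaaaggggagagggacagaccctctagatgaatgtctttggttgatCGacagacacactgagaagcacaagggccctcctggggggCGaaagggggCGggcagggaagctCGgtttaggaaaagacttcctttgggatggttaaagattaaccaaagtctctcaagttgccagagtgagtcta
Hoxa10, inner start: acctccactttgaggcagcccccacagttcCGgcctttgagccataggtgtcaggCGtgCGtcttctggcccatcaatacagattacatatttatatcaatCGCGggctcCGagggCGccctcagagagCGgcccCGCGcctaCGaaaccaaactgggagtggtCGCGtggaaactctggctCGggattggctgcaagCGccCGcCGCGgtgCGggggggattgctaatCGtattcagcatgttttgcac
Hoxa5: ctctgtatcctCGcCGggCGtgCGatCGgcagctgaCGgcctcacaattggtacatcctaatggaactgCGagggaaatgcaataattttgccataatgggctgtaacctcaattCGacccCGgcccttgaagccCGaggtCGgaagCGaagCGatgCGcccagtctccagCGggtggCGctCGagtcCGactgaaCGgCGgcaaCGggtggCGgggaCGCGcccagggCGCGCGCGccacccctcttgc

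The *Hoxa9* stretch (chr6:52227371-52227620, minus strand, within the annotated gene) held 3 CG sites and that of *Hoxa7* (chr6:52218574-52218823, minus strand, within the gene) held 7. The *Hoxd8* stretch (chr2:74704365-74704614, plus strand, just before the gene) held 6. For *Hoxa10*, the outer window (chr6:52240855-52241104, minus strand, just before the gene) held 7 and the inner one (chr6:52234940-52235189, within the gene) held 20, and for *Hoxa5* (chr6:52204588-52204837, minus strand, just before the gene and within the span of *Hoxa3*) the count was 28. Over 32841 RefSeq promoter stretches of the same length the median was 6, 92.1% held at least 1 CG, and 7.61% held as many as *Hoxa5*. The 8 windows of called genes, with *Hoxa10* counted at both starts, held a median of 6.5 CG sites (3 to 20), and 6 of them held under 8. The 8 windows of tested genes that were not called held a median of 17 (8 to 35). The ranges overlapped through *Hoxa3* (18) and the inner *Hoxa10* window, and the windows were placed differently, 5 of the 8 called and 1 of the 8 uncalled lying inside their own gene, so the counts are a description of these windows only.

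Exercise was compared with rest to ask which genes respond within the hour, over both genotypes. After exercise, 8 of the 25 tested genes were lower and 0 were higher (edgeR quasi-likelihood test, Benjamini-Hochberg adjusted p under 0.05 over 16340 genes), whereas 4.69% of all tested genes were called lower and 10.4% in either direction. The called genes were *Hoxb7*, *Hoxa3*, *Hoxa7*, *Hoxa9*, *Hoxd4*, *Hoxd8*, *Hoxa2* and *Hoxa10*. HoxA gave 5 of its 10 genes, HoxD 2 of 4, HoxB 1 of 4 and HoxC 0 of 7. By position, 3 of 6 tested genes of groups 1 to 4, 3 of 9 of groups 5 to 8 and 2 of 10 of groups 9 to 13 were called. The median log2 fold change was -0.22 over the 25 genes and -9e-04 over all genes tested, and 21 of 25 were below 0.

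*Hoxb7* (chr11:96286623-96290162, plus strand, mm10), a trunk and limb gene of HoxB, had the smallest p of the cluster genes. In the 5 WT mice at rest it was at 0.873, 0.895, 1.09, 1.13 and 1.22 CPM. The 7 mD3AKO mice at rest ranged from 0.703 to 1.37 CPM with a median of 1.05. After exercise, the 7 WT mice ranged from 0.360 to 0.689 CPM (median 0.569) and the 6 mD3AKO mice from 0.409 to 0.810 (median 0.554). Of the 13 exercised mice, 12 lay under the lowest rested mouse, so the groups overlapped by 1 mouse. The log2 fold change was -0.89 (SE 0.14, adjusted p = 3.9e-05, edgeR) and it was -0.88 in females (adjusted p = 0.0932) and -0.89 in males (adjusted p = 0.00496). Within the sexes, which hold fewer mice, *Hoxa3* passed in females (-0.70, adjusted p = 0.0498) and not in males (-0.49, adjusted p = 0.172). *Hoxa7* passed in males (-0.46, adjusted p = 0.023) and not in females (-0.25, adjusted p = 0.471), as did *Hoxa9* (-0.30, adjusted p = 0.0235, and -0.16, adjusted p = 0.553). *Hoxd4*, *Hoxd8*, *Hoxa2* and *Hoxa10* passed in neither sex, and all 8 genes were below 0 in both.

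*Hoxa3*, best known from the pharyngeal region and among the lowest genes tested, was at 0.561 to 1.05 CPM in rested mice (median 0.777) and 0.411 to 0.626 in exercised mice (median 0.512). All 13 exercised mice lay below the rested median and 11 below the lowest rested mouse. The log2 fold change was -0.58 (SE 0.11, adjusted p = 0.000544, edgeR). *Hoxa7*, a trunk gene, was at 3.19 to 4.72 CPM at rest (median 3.93) and 2.32 to 3.89 after exercise (median 3.12), a log2 fold change of -0.35 (SE 0.07, adjusted p = 0.0022). *Hoxa9*, one of the Hox9 genes that place the limb, was at 7.33 to 9.42 CPM at rest (median 8.31) and 6.17 to 8.28 after exercise (median 7.24), a log2 fold change of -0.22 (SE 0.05, adjusted p = 0.00364). For these genes too, all 13 exercised mice lay below the rested median, although the ranges overlapped.

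In HoxD, *Hoxd8* was at 10.9 to 18.3 CPM at rest (median 15.1) and 9.96 to 17.3 after exercise (median 13.8), with 12 of 13 exercised mice below the rested median. Its log2 fold change was -0.24 (SE 0.07, adjusted p = 0.0308, edgeR). *Hoxd4* was at 0.419 to 0.818 CPM at rest and 0.281 to 0.576 after exercise, and all 13 exercised mice lay below the rested median (log2 fold change -0.46, SE 0.12, adjusted p = 0.0137). Neighbouring *Hoxd9* was close to the threshold (-0.35, SE 0.12, adjusted p = 0.0553 by edgeR), and it was called by DESeq2 (adjusted p = 0.0294) and with sex (0.0483) or runs of mouse numbers (0.0414) in the edgeR model, while *Hoxa2* was not called by DESeq2 (adjusted p = 0.0612). The runs were mice 1 to 6 (female), 7 to 19 (male) and 20 to 25 (female). They contain the split by sex, so the fits with sex and with runs are not separate checks.

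*Hoxa2*, a hindbrain and pharyngeal arch gene with 1 to 14 reads per library, was at 0.189 to 0.419 CPM at rest and 0.0319 to 0.360 after exercise. With 11 of 13 exercised mice below the rested median, its log2 fold change was -0.73 (SE 0.23, adjusted p = 0.0395, edgeR). *Hoxa10*, a hindlimb and uterine gene, was at 9.29 to 13.7 CPM at rest and 7.46 to 12.6 after exercise, and 10 of 13 exercised mice lay below the rested median (-0.18, SE 0.06, adjusted p = 0.0414). These 2 calls were the least stable: *Hoxa2* was lost in 14 and *Hoxa10* in 13 of the 25 fits that left out 1 library. Library totals with no TMM scaling left 3 exercise calls (*Hoxa3*, *Hoxa7* and *Hoxb7*), and 5 remained without exercised mD3AKO mouse 17 or without rested mD3AKO mouse 24 (*Hoxa3*, *Hoxa7*, *Hoxa9*, *Hoxb7* and *Hoxd4* in both cases). Without mouse 15, 7 calls remained and *Hoxa2* was lost. *Hoxc6* (-0.27, adjusted p = 0.105) and *Hoxb6* (-0.38, adjusted p = 0.113) were not called.

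*Hoxc10*, the most abundant Hox gene, was at 18.4 to 25.6 CPM at rest (median 20.3) and 16.8 to 25.2 after exercise (median 20.4), a log2 fold change of 0.01 (SE 0.05, adjusted p = 0.952, edgeR). The 7 HoxC genes had 0 calls by edgeR and by DESeq2 and 1 at an unadjusted p under 0.05 (*Hoxc6*), with a median of -0.11 and 6 of 7 below 0. *Hoxa5* had the largest positive value of the tested Hox genes (0.33, SE 0.14, adjusted p = 0.145), and it did not pass the test. Summed over all 38 genes, Hox RNA was 97.5 CPM ± 6.86 (SD, n = 12) at rest and 87.9 ± 4.53 (n = 13) after exercise. Rested mD3AKO mouse 15 had the highest sum, 109 CPM, but 68.8 CPM on its unscaled library total, and the rested mean without it was 96.5 CPM ± 6.11 (n = 11).

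**Figure D2:**
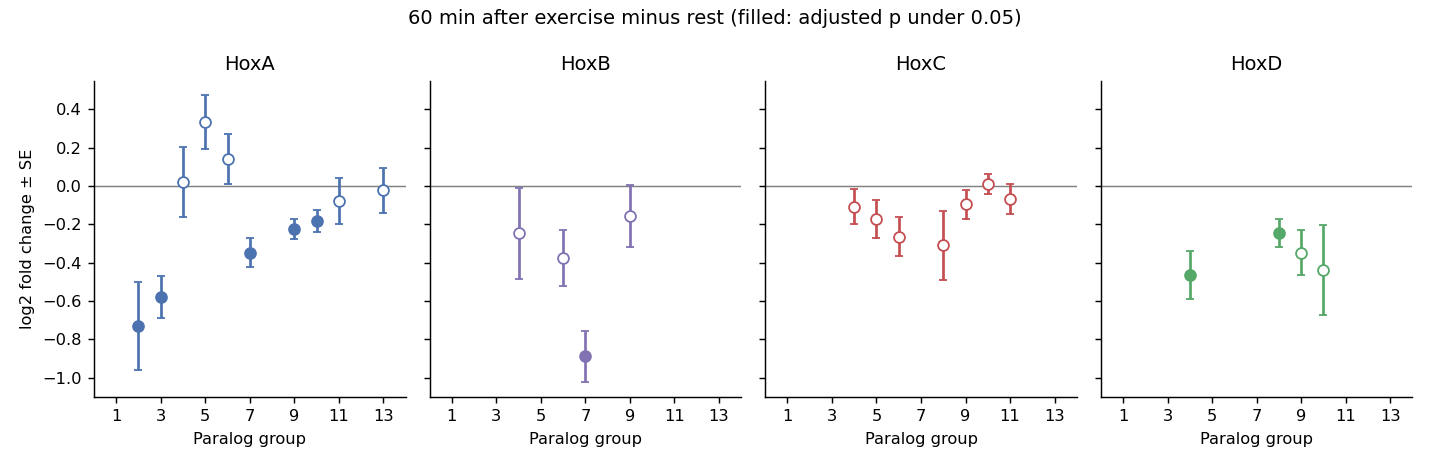
Log2 fold change 60 min after exercise minus rest (error bars SE) of the 25 tested Hox genes by paralog group, 1 panel per cluster. Filled points are called (adjusted p under 0.05); 8 are filled, all below 0, and none is in HoxC.

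**Figure D3:**
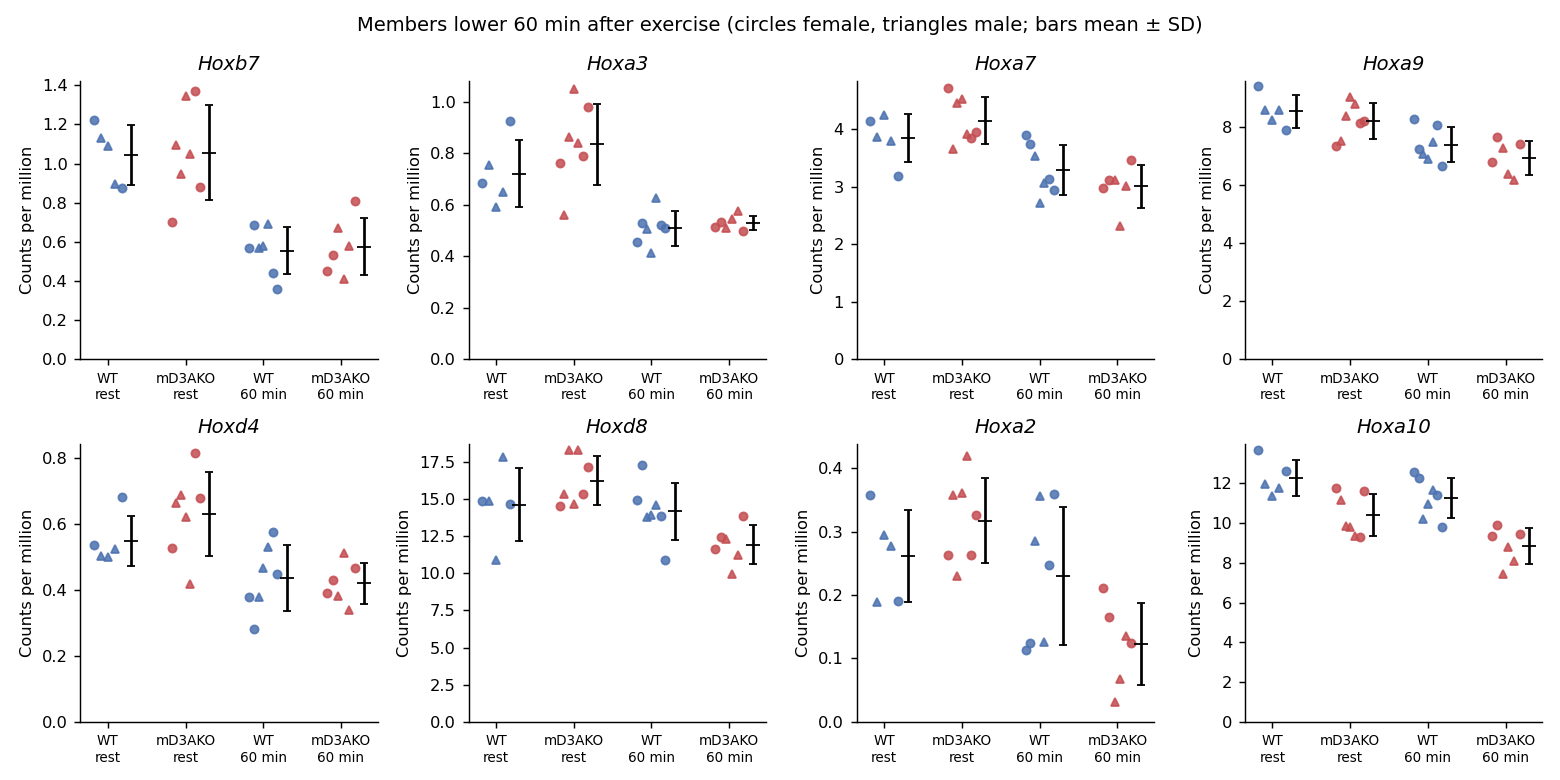
CPM of the 8 called genes in every mouse by group, circles for females, triangles for males, and black bars for the group mean ± SD. Exercised mice sit lower than rested mice in *Hoxb7* and *Hoxa3* with little overlap, whereas *Hoxd8*, *Hoxa2* and *Hoxa10* are lowest in exercised mD3AKO mice and overlap more.

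Fitted within genotype, 1 of 25 genes was lower after exercise in WT (*Hoxb7*, -0.91, adjusted p = 0.00525) against 1.43% of all genes lower, and 8 of 25 in mD3AKO mice against 2.33% lower. The mD3AKO calls were *Hoxa2*, *Hoxa3*, *Hoxa7*, *Hoxa9*, *Hoxb7*, *Hoxd4*, *Hoxd8* and *Hoxd9*. *Hoxd8* changed by -0.44 (adjusted p = 0.00729) and *Hoxd9* by -0.64 (adjusted p = 0.0149) in mD3AKO mice, against -0.04 (SE 0.11, adjusted p = 0.971) and -0.05 (SE 0.17, adjusted p = 0.981) in WT mice. *Hoxa2* changed by -1.30 (SE 0.33, adjusted p = 0.0161) in mD3AKO mice and was at -0.16 (SE 0.32, adjusted p = 0.962) in WT mice. The difference between the genotypes was itself tested as an interaction, and 0 of 25 genes were called (0.00% of all genes) by edgeR, as by DESeq2; 3 genes (against 2.47% of all genes) had an unadjusted p under 0.05 by edgeR (*Hoxd8* 0.0121, *Hoxd9* 0.0176, *Hoxa2* 0.0197). A different response of the genotypes was therefore not shown.

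Genotype was compared over both time points to ask which Hox genes differ when *Dnmt3a* is deleted in muscle fibres. In mD3AKO muscle *Hoxc9* was higher and *Hoxa10* lower, 2 of the 25 tested genes, against 0.269% of all tested genes in either direction. The paper, from the same libraries, names both among developmental genes altered in mD3AKO muscle, so these calls are not a separate finding.

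*Hoxc9* (chr15:102976439-102985099, plus strand, mm10), a Hox9 gene of the trunk and limb, was at 4.95, 5.06, 5.10, 5.51 and 5.96 CPM in the 5 WT mice at rest. It ranged from 5.04 to 8.53 CPM in the 7 mD3AKO mice at rest (median 7.62). After exercise it ranged from 4.72 to 5.66 CPM in the 7 WT mice (median 4.95) and from 5.87 to 7.55 in the 6 mD3AKO mice (median 6.44). Of 13 mD3AKO mice, 12 lay above the WT median and 10 above the highest WT mouse; after exercise the genotypes did not overlap. The log2 fold change was 0.39 (SE 0.08, adjusted p = 0.0132, edgeR). It was 0.34 within females (unadjusted p = 0.0193) and 0.42 within males (unadjusted p = 0.00158), neither of which passed after adjustment.

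*Hoxa10* (chr6:52231197-52240854, minus strand, mm10) was at 11.4, 11.8, 12.0, 12.6 and 13.7 CPM in the 5 WT mice at rest. It ranged from 9.29 to 11.8 CPM in the 7 mD3AKO mice at rest (median 9.86), from 9.81 to 12.6 in the 7 exercised WT mice (median 11.4) and from 7.46 to 9.90 in the 6 exercised mD3AKO mice (median 9.09). Of 13 mD3AKO mice, 12 lay below the WT median and 8 below the lowest WT mouse. The log2 fold change was -0.29 (SE 0.06, adjusted p = 0.0146, edgeR), with -0.27 within females (unadjusted p = 0.00844) and -0.33 within males (unadjusted p = 0.000347), again neither passing after adjustment. *Hoxa10* was thus lower both after exercise and in mD3AKO mice, and it was lowest in exercised mD3AKO mice.

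Both calls held in each of the 25 fits that left out 1 library, mouse 15 included, and neither held on library totals with no TMM scaling (*Hoxc9* 0.35, adjusted p = 0.191; *Hoxa10* -0.32, adjusted p = 0.41).

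The other HoxC genes lay on the same side as *Hoxc9* without a call. All 7 tested HoxC genes were above 0, also under each other scaling tried, by DESeq2, in females and in males, with a median of 0.29 against 0.01 over all genes tested, and 5 of them had an unadjusted p under 0.05, against 6.22% of all genes. *Hoxc5* had a log2 fold change of 0.33 (adjusted p = 0.305, edgeR), *Hoxc6* of 0.29 (adjusted p = 0.498) and *Hoxc8* of 0.47 (adjusted p = 0.579). The 10 HoxA genes were evenly split in the main edgeR fit, with 5 above and 5 below 0. That split was 4 and 6 with no normalization factors and in males, and 6 and 4 in females. In the main fit, HoxB had 2 genes above and 2 below 0, and HoxD had 1 above and 3 below. The exercise and genotype comparisons use the same libraries, and only *Hoxa10* was called in both.

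**Figure D4:**
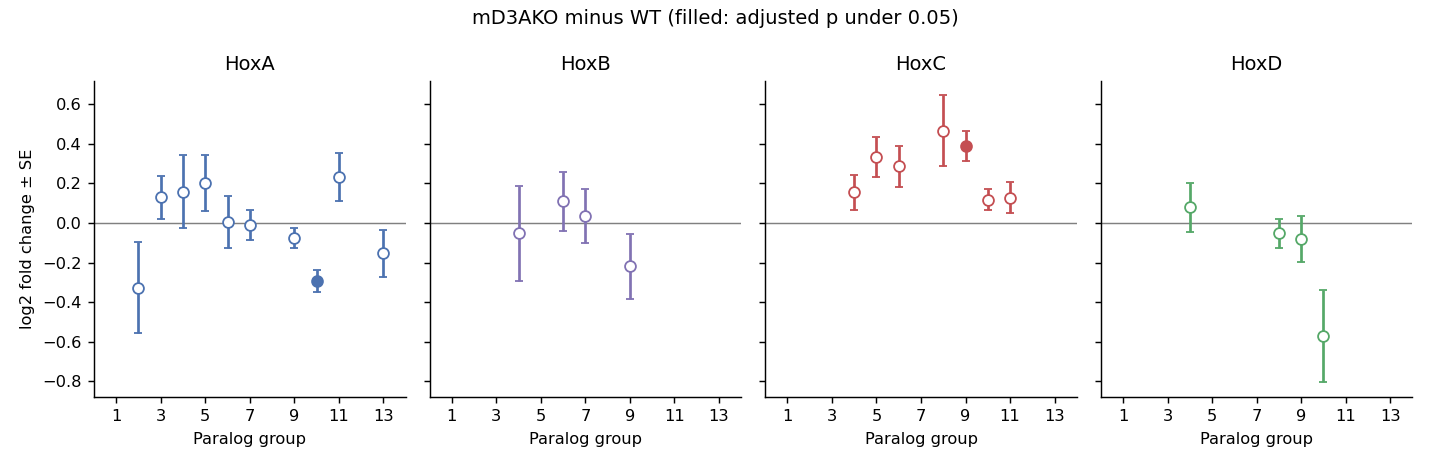
Log2 fold change mD3AKO minus WT (error bars SE) of the 25 tested Hox genes by paralog group, 1 panel per cluster, with called genes filled. *Hoxc9* (0.39) and *Hoxa10* (-0.29) are filled, and all 7 HoxC points lie above 0.

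The balance between the clusters was followed within each library as the ratio of summed HoxC to summed HoxA counts, which needs no scaling between libraries. The sums hold *Hoxc9* and *Hoxa10*, so the ratio partly restates those calls and is given as a description. In WT mice the ratio was 1.04 to 1.26, with a mean of 1.17 ± 0.0799 (SD, n = 12). In mD3AKO mice it was 1.21 to 1.77, with a mean of 1.43 ± 0.174 (n = 13). The mD3AKO mean was 1.36 ± 0.127 (n = 7) at rest and 1.52 ± 0.191 (n = 6) after exercise, and the WT mean 1.16 ± 0.0962 (n = 5) and 1.19 ± 0.0713 (n = 7). After exercise the lowest mD3AKO ratio (1.32) was above the highest WT ratio (1.25), while the ranges at rest overlapped. Which time point separated depended on the genes summed. A further ratio left out the gene with the most counts of each cluster, *Hoxc10* and *Hoxa10*, and still held *Hoxc9*. At rest it was 0.828 to 0.949 in WT and 0.977 to 1.17 in mD3AKO mice, with no overlap. After exercise it was 0.725 to 0.964 and 0.952 to 1.24, with overlap. Over both time points the mean of that ratio was 0.881 ± 0.0705 (n = 12) in WT and 1.06 ± 0.0908 (n = 13) in mD3AKO mice. The ratio was also higher in males (1.39 ± 0.206, n = 13) than in females (1.22 ± 0.121, n = 12), as a description. Within females it was 1.04 to 1.22 in WT and 1.21 to 1.39 in mD3AKO mice, which overlapped, and within males 1.13 to 1.26 and 1.30 to 1.77, which did not. The 2 called genes alone gave a *Hoxc9* to *Hoxa10* count ratio of 0.393 to 0.554 in WT and 0.507 to 1.01 in mD3AKO mice, a description of genes already chosen for their difference. Without both of these genes, a ratio added after their calls were seen, the HoxC to HoxA ratio was 1.40 to 1.71 in WT (mean 1.58 ± 0.110) and 1.46 to 2.26 in mD3AKO mice (mean 1.76 ± 0.229), and the genotypes overlapped both at rest and after exercise.

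**Figure D5:**
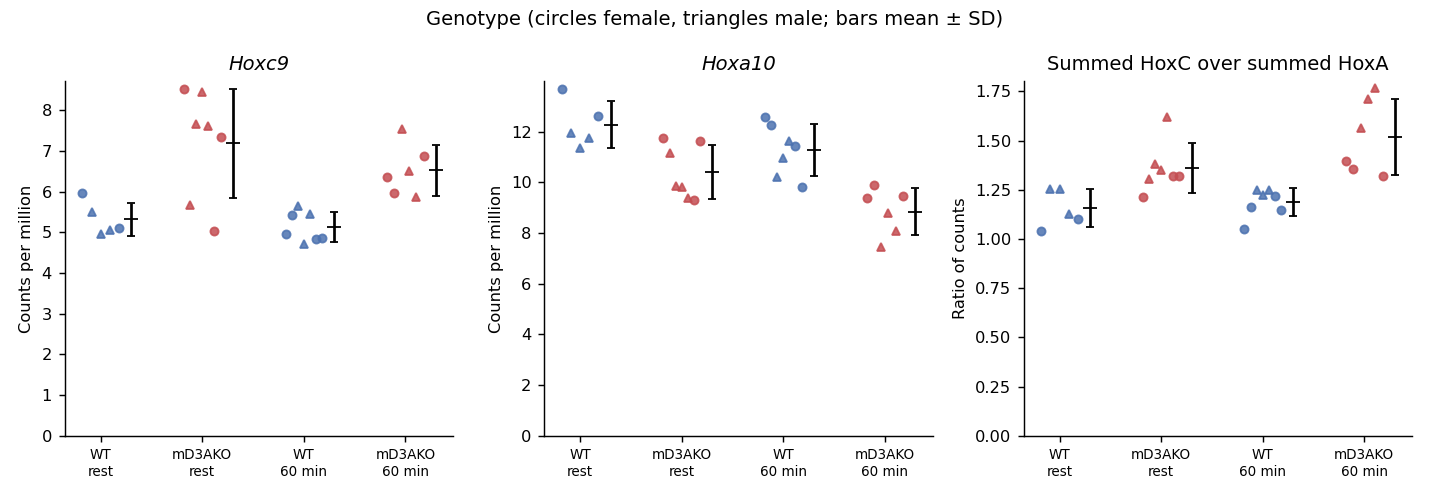
CPM of *Hoxc9* and *Hoxa10*, and the ratio of summed HoxC to summed HoxA counts, in every mouse by group (circles females, triangles males, black bars mean ± SD). The mD3AKO mice sit higher in *Hoxc9* and in the ratio, which includes both genes, and lower in *Hoxa10*, and 10 of 13 exceed every WT mouse in *Hoxc9*.

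Split by time point, genotype called 0 of 25 Hox genes at rest (0.0918% of all genes) and 0 of 25 after exercise (0.110%) by edgeR, and 0 and 1 (*Hoxa10*) by DESeq2; the edgeR counts at an unadjusted p under 0.05 were 3 and 9, against 3.65% and 5.51% of all genes. *Hoxc9* had a log2 fold change of 0.43 at rest (adjusted p = 0.293) and 0.35 after exercise (adjusted p = 0.438), and *Hoxa10* of -0.24 (adjusted p = 0.963) and -0.35 (adjusted p = 0.123).

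Sex was compared because both sexes were in every group. By mouse number, mice 1 to 6 and 20 to 25 were female and mice 7 to 19 male. A sex difference thus cannot be told apart from anything that followed that order. Between males and females 0 of 25 Hox genes were called by edgeR, against 8.64% of all genes tested, and 7 had an unadjusted p under 0.05, against 23.9%. DESeq2 called 3, all higher in males: *Hoxc11*, *Hoxa11* and *Hoxc10*. *Hoxa11*, which with its paralogs patterns the lower leg, was at 1.31 to 2.37 CPM in females and 1.63 to 3.31 in males (log2 fold change 0.33, SE 0.11, adjusted p = 0.0523, edgeR). *Hoxc11* was at 4.23 to 6.01 CPM in females and 4.93 to 7.02 in males (0.23, SE 0.07, adjusted p = 0.0523). *Hoxc10* was at 16.8 to 21.8 CPM in females and 18.7 to 25.6 in males (0.15, SE 0.05, adjusted p = 0.0549). The sexes overlapped in each. On library totals with no TMM scaling the differences were smaller, at 0.23 for *Hoxa11* (adjusted p = 0.287), 0.12 for *Hoxc11* (adjusted p = 0.447) and 0.04 for *Hoxc10* (adjusted p = 0.675). All 7 tested HoxC genes lay above 0 (higher in males), 0 called and 3 at an unadjusted p under 0.05 by edgeR. Fibre genes differed between the sexes in the same libraries: of 14 soleus fibre genes, 4 were higher in males, among them the fast myosin *Myh2* (0.30, adjusted p = 0.0247, edgeR), and 6 lower, among them the slow myosin *Myh7* (-0.51, adjusted p = 0.000173). The part of fibre composition in the Hox values was not tested. For the interaction of sex with exercise, and that of sex with genotype, 0 of 25 were called (0.0551% and 0.00% of all genes) by edgeR or DESeq2, and 0 had an unadjusted p under 0.05 in edgeR (3.34% and 1.71%).

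Transcripts and proteins that work with Hox genes were described from fixed lists. Of 17 noncoding Hox cluster transcripts in the table, 6 were tested and 2 were lower after exercise, against 4.69% of all genes tested. These were *Hoxaas3*, antisense to *Hoxa3* and *Hoxa7*, at -0.88 (SE 0.21, adjusted p = 0.00477, edgeR), and *Hoxd3os1*, antisense to *Hoxd3* and *Hoxd4*, at -0.44 (adjusted p = 0.0281). Their exons overlap Hox genes called above, and reads on the shared bases appear not to have been counted for either. Antisense reads on other bases of a Hox exon may have been counted for the Hox gene, since counting appears to have ignored strand. Whether the Hox and antisense calls are separate was not tested. Of 12 tested genes flanking the clusters, 0 were called for exercise or genotype by edgeR or DESeq2 (0 and 1 at an unadjusted p under 0.05). Among 10 cofactors that bind DNA with Hox proteins or bind such partners, *Meis2* was lower after exercise (-0.73, SE 0.23, adjusted p = 0.0365, edgeR); edgeR called no other, and DESeq2 also called *Pbx2*.

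Of 30 Polycomb genes, which hold Hox clusters silent, *Rnf2*, the RING ubiquitin ligase subunit, was higher after exercise (0.24, adjusted p = 0.00964, edgeR) and *Pcgf2* lower (-0.52, adjusted p = 0.011). Of 17 Trithorax, H3K27 demethylase and related genes, *Dot1l* alone was called after exercise (0.30, adjusted p = 0.0315). Of 14 genes of retinoic acid signalling, which switches on Hox genes in the embryo, 3 were lower after exercise, against 4.69% of all genes tested. These were *Cyp26b1*, which degrades retinoic acid, from 9.16 to 3.12 CPM (-1.57, SE 0.22, adjusted p = 1.64e-05, edgeR), *Rarg* (-0.35, adjusted p = 0.0115) and *Rara* (-0.28, adjusted p = 0.0219). Of 11 limb identity and axial genes, *Meox2*, a homeobox gene of muscle and vessel precursors, was lower (-0.76, SE 0.06, adjusted p = 2.55e-09). Of the 100 genes tested in the noncoding, flanking, cofactor, Polycomb, Trithorax, limb and retinoic acid lists, 10 were called for exercise by edgeR, against 10.4% of all genes tested. For genotype 0 of the 100 were called by edgeR or DESeq2, and 9 had an unadjusted p under 0.05, against 6.22% of all genes.

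Some markers of other cells were called for exercise as well, read against 10.4% of all genes tested called in either direction and 4.69% lower. Of 8 endothelial markers 6 were lower, among them *Kdr* (-0.58, adjusted p = 2.1e-06, edgeR), and 1, *Flt1*, was higher (0.32, adjusted p = 0.000337). Their summed level was 454 to 602 CPM at rest and 413 to 519 after exercise. Of 8 smooth muscle and pericyte markers, *Pdgfrb* (-0.46, adjusted p = 0.000364) and *Kcnj8* (-0.29, adjusted p = 0.00221) were lower, with sums of 794 to 1005 and 795 to 1010 CPM. Of 10 satellite cell markers, *Pax7* (-0.45, adjusted p = 0.00411) and *Myf5* (-0.46, adjusted p = 0.000843) were lower and *Sdc4* higher (0.93, adjusted p = 7.77e-09), DESeq2 also called *Cdh15*, and 6 had an unadjusted p under 0.05 by edgeR, with sums of 242 to 318 and 268 to 386 CPM. Of 14 fibroblast markers edgeR called *Ly6a*, higher (0.28, adjusted p = 0.0386), and DESeq2 also *Pdgfra*, the edgeR share of 7.14% being below that of all genes, with sums of 2316 to 7835 and 2456 to 5430 CPM. The tendon (8 tested), Schwann cell (8), adipocyte (6), immune (7), blood (5) and skin (2) lists had no call for exercise, and neither did 14 soleus fibre genes (0 of these 50 genes by edgeR, by DESeq2 or at an unadjusted p under 0.05).

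For genotype, 1 gene of these cell type lists was called by edgeR, against 0.269% of all genes tested. The gene was *Pax7*, 1 of the 10 satellite cell markers, and it was higher in mD3AKO mice (0.48, SE 0.11, adjusted p = 0.0384, edgeR). Its means were 3.83 CPM in WT and 5.51 CPM in mD3AKO mice. The call was lost in 17 of the 25 fits that left out 1 library. The part of any of these cell types in the Hox values was not tested.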

How the data were processed

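RNA was extracted from 1 *soleus* per mouse, depleted of ribosomal RNA, made into stranded libraries and sequenced as 75-bp paired ends. Per the labels, the authors used FastQC 0.11.5, STAR 2.5.3a and featureCounts 1.5.3 with the mm10 build, and deposited raw counts per gene for 25 libraries. Here, counts were tested with edgeR 4.0.16 (R 4.3.3): filterByExpr (minimum count 10, minimum total 15), TMM scaling (factors 0.631 to 1.16), and quasi-likelihood F tests in a model of 4 groups, with Benjamini-Hochberg adjustment over 16340 genes. Sex used a model of 8 groups, sex by group. CPM and FPKM were computed here from TMM-scaled library sizes and the exon length in the table, and pooled levels are means ± SD over mice. DESeq2 1.42.0 and other settings were run as alternatives. The test was tested on simulated data. No 2 libraries were identical: over 67 pairs within groups, chi-square per degree of freedom was at least 14.5. The p-values measure the spread between mice. Statistics were given for called Hox genes and up to 3 uncalled genes with the smallest p per main comparison, and for others where a sentence singles them out after their values were seen. Genes and lists were chosen with earlier results of these data known. Promoter sequences came from RefSeq. Intervals and limits on counts cover counting error only.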

Additional observations from a re-analysis of the deposited data

Results flagged for a closer look

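Of 104 combinations of a gene (25 Hox genes and *Dnmt3a*) and a group, 6 held a mouse far from the others of its group by Dixon's ratio, where chance gives about 1 in 20 combinations, or 5.2. In exercised mD3AKO mice, mouse 19 was low for *Hoxa5* at 1.02 CPM against 1.84 to 2.07 in the others, and mouse 23 was high for *Hoxd10* at 0.561 against 0.0904 to 0.223. In rested WT mice, mouse 14 was high for *Hoxa6* at 1.02 CPM against 0.692 to 0.775 and for *Hoxa13* at 4.17 against 2.29 to 2.83, and mouse 20 was high for *Hoxd4* at 0.682 against 0.501 to 0.537. In exercised WT mice, mouse 18 was high for *Hoxc8* at 0.971 CPM against 0.384 to 0.603. Of these genes, *Hoxd4* was called for exercise, and it was at -0.42 without mouse 20 (adjusted p = 0.0497, edgeR).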

How the results depend on the processing

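No paired analysis was possible because each mouse number occurs in 1 group. For exercise, 8 Hox genes were called; 3 were called with no normalization factors, 5 of 34 tested with no filter on low counts, 5 of 18 tested with a stricter filter (1 CPM in 5 libraries), 1 in females and 3 in males, the last 4 with other genes or fewer mice tested, and 5 to 9 when 1 mouse was left out. With sex or runs of mouse numbers in the model 9 were called. These fits are not separate checks, because the runs contain the split by sex. In WT alone the 1 call became 0 in females and 0 in males. In mD3AKO mice the 8 calls became 5 with no normalization factors, 5 with the stricter filter, 0 in females and 3 in males, and 6 to 9 leaving out 1 mouse. For genotype the 2 calls became 0 with no normalization factors, 0 in females and 0 in males, and stayed 2 leaving out any 1 mouse. Genotype after exercise had 1 call (*Hoxa10*) with sex in the model, with runs of mouse numbers and by DESeq2. Genotype at rest had 0 to 1 calls leaving out 1 mouse, the 1 being *Hoxc9* without mouse 21. For sex, 3 were called with RLE scaling, the stricter filter, library totals without the 3 largest genes and DESeq2, 0 with no normalization factors or no filter, and 0 to 4 leaving out 1 mouse. The mean HoxC to HoxA ratio without *Hoxc10* and *Hoxa10* became 0.881 in WT and 1.06 in mD3AKO mice. These genes have the most counts of their clusters. Without *Hoxc9* and *Hoxa10*, chosen after seeing the data, the ratio was 1.58 and 1.76. List genes called for genotype numbered 0 to 1 leaving out 1 mouse. The cause was not tested where a library or the scaling changed a call. Of 665 refitted values of 19 named results, 570 kept their direction and side of the threshold, 59 lost the call, 36 gained it and 0 reversed. Of the 10 highest Hox genes per length, 8 to 10 stayed among them by CPM, by library totals or by unshared exon length; the last was also chosen after seeing the data. *Hoxa2* had only 1 to 14 reads a library, *Hoxd4* 6 to 31, *Hoxa3* 12 to 39 and *Hoxb7* 12 to 52. Their values in a single library are imprecise.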
